A study of Mus musculus with 32 samples.

Results

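The hearts compared here are those of mice carrying the G58R mutation in CHCHD10 (C10) and of their wild-type littermates, all with 1 remaining copy of OMA1. They were chosen by genotype and age from the sample labels: 4 C10 G58R OMA1+/- hearts and 4 C10 WT OMA1+/- hearts at 14 weeks, which are 8 of the 32 hearts of the series. The G58R allele was a heterozygous knockin made by CRISPR/Cas9 on the C57Bl6J background, and the OMA1 knockout allele, of which every one of these 8 animals carried 1 copy, came from an existing line. Littermates were obtained by crossing C10 WT OMA1-/- with C10 G58R OMA1+/- mice. RNA of the heart, 1 array per animal, was hybridised to Clariom S Mouse arrays (Affymetrix), and the values are log2 intensities. The G58R hearts came from females (replicates 1, 2 and 4) and a male (replicate 3), and the WT hearts from males (replicates 1 and 4) and females (replicates 2 and 3). No heart without any loss of OMA1 is among them, so the comparison is of the G58R allele on an OMA1 heterozygous background, and the mutation is present in every cell of the animal rather than in cardiomyocytes alone.

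CHCHD10 is a small protein of the mitochondrial intermembrane space, and dominant mutations in it cause disease of muscle, heart and motor neurons. OMA1 is a protease of the inner mitochondrial membrane that is switched on by membrane stress. It cuts the fusion protein OPA1 and the messenger DELE1, which then activates the kinase HRI. HRI phosphorylates eIF2alpha, general translation slows, and translation of the transcription factor ATF4 rises. ATF4, with its partners ATF5, CHOP (Ddit3) and C/EBP factors, switches on genes for serine and one-carbon metabolism, amino acid uptake and tRNA charging. This programme is called the integrated stress response (ISR).

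ATF4 binds DNA as a dimer with C/EBP proteins at a composite element whose core is TGATGNAA. The window from 250 bases before to 50 bases after each RefSeq gene start (GRCm38.p6) was searched for these 8 letters on both strands. A match was found for 14 of the 245 genes that rose in G58R hearts and had a promoter sequence (5.71%), for 3 of the 61 that fell (4.92%), and for 620 of all 15691 genes tested with one (3.95%). The windows below belong to ISR genes and to the endoplasmic reticulum stress gene Herpud1, all described in the next paragraphs. They were picked from the risen genes in which the element lies before the start. Capitals mark the 8 matching letters, read on the printed strand or, as TTNCATCA, on the other. Each is written 5′ to 3′ on the strand of the gene.
Asns: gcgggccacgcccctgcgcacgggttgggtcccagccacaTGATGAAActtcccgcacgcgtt
Chac1: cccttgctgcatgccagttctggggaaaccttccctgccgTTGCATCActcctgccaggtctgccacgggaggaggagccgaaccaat
Gars: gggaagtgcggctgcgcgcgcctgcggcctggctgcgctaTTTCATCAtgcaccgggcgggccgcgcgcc
Slc7a11: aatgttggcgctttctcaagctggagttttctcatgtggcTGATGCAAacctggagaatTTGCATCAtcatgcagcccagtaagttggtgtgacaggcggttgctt
Herpud1: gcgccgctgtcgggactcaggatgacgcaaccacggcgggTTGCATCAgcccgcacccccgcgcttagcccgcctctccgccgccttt
The Asns window lies at chr6:7693210-7693272 (minus strand), Chac1 at chr2:119351009-119351096 (plus strand), Gars at chr6:55037931-55038000 (plus strand), Slc7a11 at chr3:50443614-50443719 (minus strand) and Herpud1 at chr8:94386277-94386364 (plus strand). Slc7a11, the cystine transporter, carried the element on both strands within its window. In Iars, Yars, Slc1a4 and Arhgef2 the match lay at or past the annotated start and is not printed. The element also lay before the start of the risen genes Ctsl, Atp6v0d1, Emilin2, Hax1 and Samd8, whose windows are not printed. The same holds for the fallen genes Lgi1, H2-Ob and Sgms2. A match of letters is a description of the sequence; binding was not measured.

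The tissue content of the 8 hearts was not the same, and this bears on every fall described below. White adipocyte markers (Adipoq, Plin1, Cidec, Retn and others, 6 on the array) averaged 7.19, 7.27, 6.18 and 6.39 in G58R hearts 1 to 4, against 10.28, 10.88, 10.82 and 6.91 in WT hearts 1 to 4. WT hearts 1 to 3 therefore stood above all G58R hearts and WT heart 4 did not. The 4 atrial markers (Myl7, Myl4, Sln, Bmp10) averaged 15.72, 12.54, 11.58 and 17.26 in G58R hearts, against 16.66, 13.87, 17.60 and 8.69 in WT hearts. WT heart 4, the only WT heart with a fat cell signal near that of the G58R hearts, also had the lowest atrial signal of the 8. It lay apart from the other 7 on the first principal component, which held 37.8% of the variance over 9828 genes above background (score 77.11, against -41.48 to 4.9 for the others). Cardiomyocyte markers averaged 17.94 to 18.29 in G58R hearts and 17.81 to 18.31 in WT hearts. In whole-tissue RNA, fewer cells of a type and less RNA per cell cannot be told apart. The C10 WT OMA1-/- hearts of the same age, which had low fat cell signal (5.85 to 7.38), are therefore used below as a further set of wild-type levels, with the limit that they have no OMA1.

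**Figure D1:**
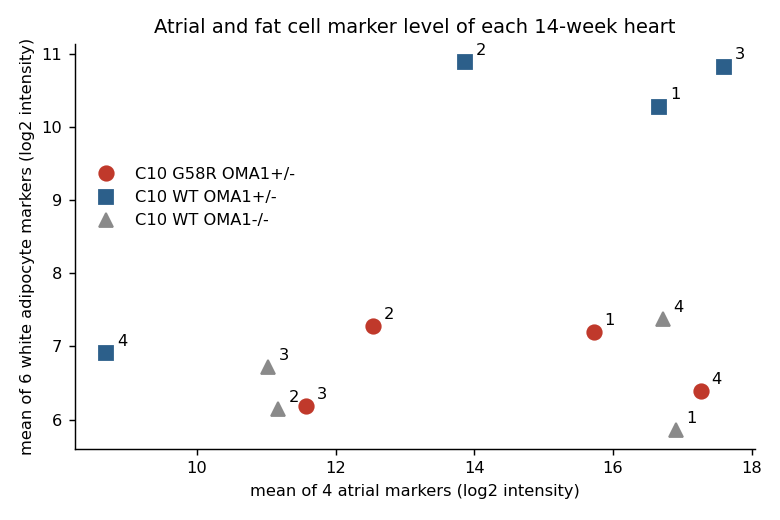
Each point is 1 heart at 14 weeks, numbered by replicate: circles are C10 G58R OMA1+/-, squares C10 WT OMA1+/- and triangles C10 WT OMA1-/- hearts. The x axis is the mean log2 intensity of 4 atrial markers and the y axis that of 6 white adipocyte markers; WT OMA1+/- hearts 1 to 3 lie above a fat cell mean of 10 and WT heart 4 sits at the lower left, at 8.69 for atrial and 6.91 for adipocyte markers.

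Across 19505 genes, 387 differed between G58R and WT hearts at an adjusted p below 0.05 (1.98%, limma with Benjamini-Hochberg adjustment). Of these, 295 were higher (1.51% of genes tested) and 92 lower (0.472%). The 4 G58R values lay wholly above the 4 WT values for 273 of the rises and wholly below them for 79 of the falls. Over all genes tested, 4.56% lay wholly above and 3.31% wholly below. A positive log2 fold change of any size was found for 9122 of the 19505 genes. Counts of positive list members below are to be read beside that share. It was not taken over genes above background alone, whose median log2 fold change was 0.14. Set against WT heart 4 alone, all 4 G58R hearts were higher for 293 of the 295 rises and lower for 84 of the 92 falls. That heart helped to choose the calls, so this count was largely fixed in advance and is no separate support. Set against the 4 WT OMA1-/- hearts, all 4 G58R hearts lay beyond every one of them for 267 of the rises but for 45 of the falls. The G58R hearts chose the calls here too, and neither count was taken over all genes. Without WT heart 4 the count was 363 genes (225 higher, 138 lower), which kept 184 of the rises and 55 of the falls. With the adipocyte marker mean as a covariate it was 1892, or 6.27% of genes higher and 3.44% lower, keeping 244 rises and 47 falls. Within the 2 groups compared the adipocyte mean varied most through WT heart 4, so the fits with this covariate lean on that heart. Both groups averaged below background for 11 rises and 27 falls, and no size of the change from WT OMA1+/- hearts is given for those. Background was taken as 6.59, a level that 95% of olfactory and vomeronasal receptor genes do not exceed.

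Among the transcription factors of the ISR, Atf5 changed most. It stood at 11.76, 12.64, 12.40 and 12.97 in G58R hearts, against 7.98, 8.38, 8.01 and 7.69 in WT hearts. No WT heart came within 3.38 log2 units of a G58R heart (log2 fold change 4.43 ± 0.25 SE, adjusted p = 1.07e-08). Atf4 itself was at 14.21, 15.13, 14.82 and 14.35 in G58R hearts, against 12.22, 12.60, 12.70 and 12.36 in WT hearts, again without overlap (log2 fold change 2.16 ± 0.25 SE, adjusted p = 7.98e-05). Ddit3, which encodes CHOP, was at 11.88, 12.83, 12.50 and 11.30 in G58R hearts, against 10.39, 10.22, 10.83 and 10.53 in WT hearts (log2 fold change 1.64 ± 0.35 SE, adjusted p = 0.0204), and Cebpg, which encodes a C/EBP partner of ATF4, at 10.69, 11.48, 10.85 and 10.72 in G58R hearts, against 9.74, 9.61, 9.58 and 9.77 in WT hearts (log2 fold change 1.26 ± 0.26 SE, adjusted p = 0.0159). Both groups were apart for these genes, and G58R heart 2 had the highest level of Atf4, Ddit3 and Cebpg. The Ddit3 call was lost without G58R heart 2, G58R heart 3 or WT heart 2, and that of Cebpg without G58R heart 2; with the adipocyte covariate the log2 fold change of Cebpg was 1.09 and missed the threshold (adjusted p = 0.0582), whereas against WT OMA1-/- hearts Cebpg was called at 1.42. Chac1, a glutathione-degrading enzyme and a late target of ATF4 and CHOP, was below background in all WT hearts (4.12, 4.43, 4.24 and 4.31) and in G58R hearts 1 and 3, and reached 8.15 in G58R heart 2 (adjusted p = 0.00856). With these, 5 of 15 listed factors and regulators passed the test upward and 0 downward, with a median log2 fold change of 1.26 over the 13 members above background, against 0.14 over all genes above background. Trib3, the pseudokinase that restrains ATF4, was at 7.68, 8.37, 9.15 and 8.59 in G58R hearts, against 7.003, 6.17, 7.11 and 7.80 in WT hearts; its groups overlapped and the difference missed the threshold (adjusted p = 0.0831). Nupr1 was higher in every G58R heart (11.88, 12.29, 11.97 and 11.57) than in any WT heart (10.82, 10.004, 11.33 and 8.66), yet missed it as well (adjusted p = 0.0558), with WT heart 4 lowest. Atf3 overlapped between the groups (adjusted p = 0.569). Of the eIF2alpha kinases, eIF2B subunits and their inputs, 0 of 11 passed the test, and 1 with the adipocyte covariate.

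The largest rise in the transcriptome was that of Mthfd2, the mitochondrial enzyme that oxidises methylene-tetrahydrofolate and that most adult tissues express little. Its level was 13.92, 14.22, 14.64 and 14.11 in G58R hearts, against 7.23, 9.25, 6.54 and 6.87 in WT hearts (log2 fold change 6.75 ± 0.50 SE, adjusted p = 3.76e-07), a 107-fold difference. The G58R hearts lay within 0.72 log2 units of one another, whereas WT heart 2 stood above the other WT hearts, which were close to background. Aldh1l2, the next mitochondrial enzyme of the folate route, which releases the carbon of formyl-tetrahydrofolate as carbon dioxide and makes NADPH, was at 9.12, 9.44, 9.56 and 10.10 in G58R hearts, against 5.35, 6.77, 6.48 and 6.37 in WT hearts (log2 fold change 3.32 ± 0.29 SE, adjusted p = 3.41e-06). Shmt2, which feeds serine into the pathway, rose less, to 9.23, 9.29, 9.58 and 9.19 in G58R hearts, against 6.91, 7.93, 8.23 and 8.57 in WT hearts (log2 fold change 1.41 ± 0.31 SE, adjusted p = 0.0218), and missed the threshold with the adipocyte covariate (1.34, adjusted p = 0.0519). Mthfd2l, the paralog normally found in adult tissue, was also higher (log2 fold change 0.89 ± 0.22 SE, adjusted p = 0.0446). The cytosolic counterpart of Aldh1l2, Aldh1l1, was called in the other direction, but both groups averaged below background. In all, 4 of 12 folate enzymes rose and 1 fell.

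**Figure D2:**
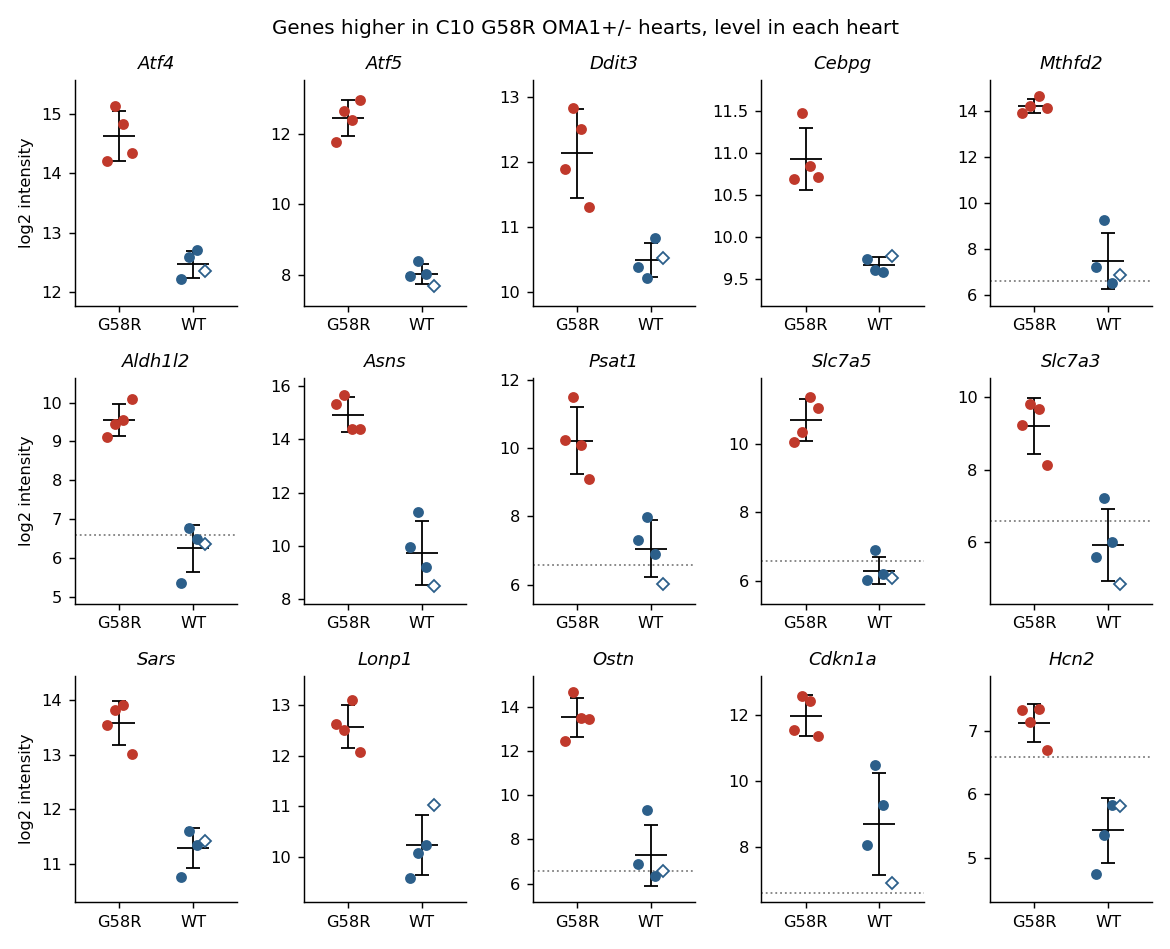
Each panel is a gene and each point 1 heart, G58R left and WT right; the y axis is log2 intensity, the horizontal bar the mean, the whiskers the SD (n = 4), the open diamond WT heart 4 and the dotted line the background level. In all 15 panels every G58R heart lies above every WT heart, including WT heart 4.

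Of 11 genes for the synthesis of serine, asparagine and proline, 4 rose. Asns, asparagine synthetase, was at 15.33, 15.65, 14.37 and 14.37 in G58R hearts, against 9.98, 11.29, 9.22 and 8.49 in WT hearts (log2 fold change 5.19 ± 0.44 SE, adjusted p = 1.75e-06), a 36.4-fold difference. Psat1 and Phgdh, enzymes of serine synthesis, stood apart too: Psat1 was at 10.24, 11.49, 10.09 and 9.09 in G58R hearts, against 7.31, 7.996, 6.91 and 6.01 in WT hearts (log2 fold change 3.17 ± 0.43 SE, adjusted p = 0.000471), and Phgdh at 8.75, 9.55, 8.78 and 8.59 in G58R hearts, against 7.59, 7.14, 6.60 and 6.20 in WT hearts (log2 fold change 2.04 ± 0.30 SE, adjusted p = 0.00128). WT heart 4 had the lowest level of Asns, Psat1 and Phgdh among WT hearts, so these differences were larger against that heart than against the WT mean. WT heart 4 was low in both fat cell and atrial signal. Aldh18a1, which makes the proline precursor from glutamate, was at 10.13, 10.25, 10.87 and 9.97 in G58R hearts, against 8.10, 7.95, 8.39 and 6.72 in WT hearts (log2 fold change 2.51 ± 0.28 SE, adjusted p = 6.2e-05). The other 7 did not pass; Psph, the last enzyme of serine synthesis, had a log2 fold change of -0.61 and missed the test (adjusted p = 0.227).

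Of 16 amino acid transporters, 8 were higher in G58R hearts and 1 was lower. Slc7a5, the large neutral amino acid carrier LAT1, was near background in WT hearts and was at 10.04, 10.34, 11.35 and 11.05 in G58R hearts, against 6.02, 6.88, 6.21 and 6.08 in WT hearts (log2 fold change 4.40 ± 0.31 SE, adjusted p = 1.81e-07). Its heavy chain Slc3a2 was abundant in both groups, at 15.21, 14.83, 14.85 and 14.50 in G58R hearts, against 13.39, 13.56, 13.73 and 13.03 in WT hearts, and rose by less (log2 fold change 1.42 ± 0.22 SE, adjusted p = 0.00183). The cationic carrier Slc7a3 was at 9.24, 9.83, 9.68 and 8.13 in G58R hearts, against 5.60, 7.24, 6.02 and 4.86 in WT hearts (log2 fold change 3.29 ± 0.41 SE, adjusted p = 0.000218) and its relative Slc7a1 at 8.51, 8.40, 8.92 and 8.49 in G58R hearts, against 7.39, 6.84, 7.24 and 6.17 in WT hearts (log2 fold change 1.67 ± 0.24 SE, adjusted p = 0.000825). Slc7a11, whose promoter window is printed above, was below background in all WT hearts and above it in all G58R hearts (7.44, 7.87, 7.28 and 7.97), a rise of at least 1.05 log2 units (adjusted p = 0.0144). Slc38a1 and Slc7a6 rose by 1.54 and 1.14, and Slc1a4 was called upward with both groups below background. The exception was Slc1a5, the glutamine carrier ASCT2, at 9.64, 10.13, 9.61 and 10.16 in G58R hearts, against 11.46, 12.57, 11.69 and 10.54 in WT hearts (log2 fold change -1.68 ± 0.41 SE, adjusted p = 0.0402). Its G58R hearts lay below every WT heart, with WT heart 4 nearest to them; with the adipocyte covariate its log2 fold change was -0.65 (adjusted p = 0.363), and leaving out any of G58R hearts 1 to 3 or WT hearts 1 to 3 removed the call.

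The cytosolic aminoacyl-tRNA synthetases, which charge tRNAs with their amino acids, all had a positive log2 fold change, and 9 of 18 passed the test. The seryl-tRNA synthetase Sars was at 13.55, 13.82, 13.92 and 13.01 in G58R hearts, against 10.76, 11.61, 11.35 and 11.41 in WT hearts (log2 fold change 2.29 ± 0.23 SE, adjusted p = 1.66e-05). Iars, for isoleucine, was at 13.03, 12.44, 13.02 and 12.47 in G58R hearts, against 10.01, 10.85, 10.70 and 10.41 in WT hearts (log2 fold change 2.25 ± 0.21 SE, adjusted p = 5.02e-06), and Gars, for glycine, at 14.15, 14.58, 14.71 and 14.11 in G58R hearts, against 11.74, 12.29, 12.12 and 12.69 in WT hearts (log2 fold change 2.17 ± 0.23 SE, adjusted p = 2.72e-05). Yars and Cars rose by 2.17 and 2.09, and Eprs, Mars1, Nars and Lars by 1.25 to 1.63. Of these, Mars1 missed the threshold with the adipocyte covariate (1.12, adjusted p = 0.055). The groups did not overlap for any of the 9, and WT heart 4 was within the spread of WT hearts 1 to 3 or above it for Sars, Iars, Gars, Yars and Cars. The synthetases for glutamine, lysine, valine, tryptophan and histidine (Qars, Kars, Vars, Wars, Hars) had log2 fold changes of 0.08 to 0.56 and did not pass. Mitochondrial synthetases, a separate set of 16 genes, had 1 member past the test, Mars2 (log2 fold change 1.11 ± 0.21 SE, adjusted p = 0.00894), and a median of 0.44. Initiation factors Eif3c and Eif2s2 rose by 1.28 and 1.26, as 2 of 12 on their list. Myc, which drives ribosome production, was at 7.71, 8.97, 9.02 and 8.34 in G58R hearts, against 6.73, 7.12, 6.73 and 6.56 in WT hearts (log2 fold change 1.72 ± 0.29 SE, adjusted p = 0.003), with the polymerase I factor Rrn3 (1.01) and the ribosome assembly factor Wdr12 (1.18) also higher; 3 of 16 listed nucleolar genes rose and all 16 had a positive log2 fold change. Of the 60 cytosolic ribosomal protein genes, Rps13 rose and Rpl3l fell, and 57 had a positive log2 fold change (median 0.33). Fitted with the adipocyte covariate, 22 of them were called upward and 2 downward.

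**Figure D3:**
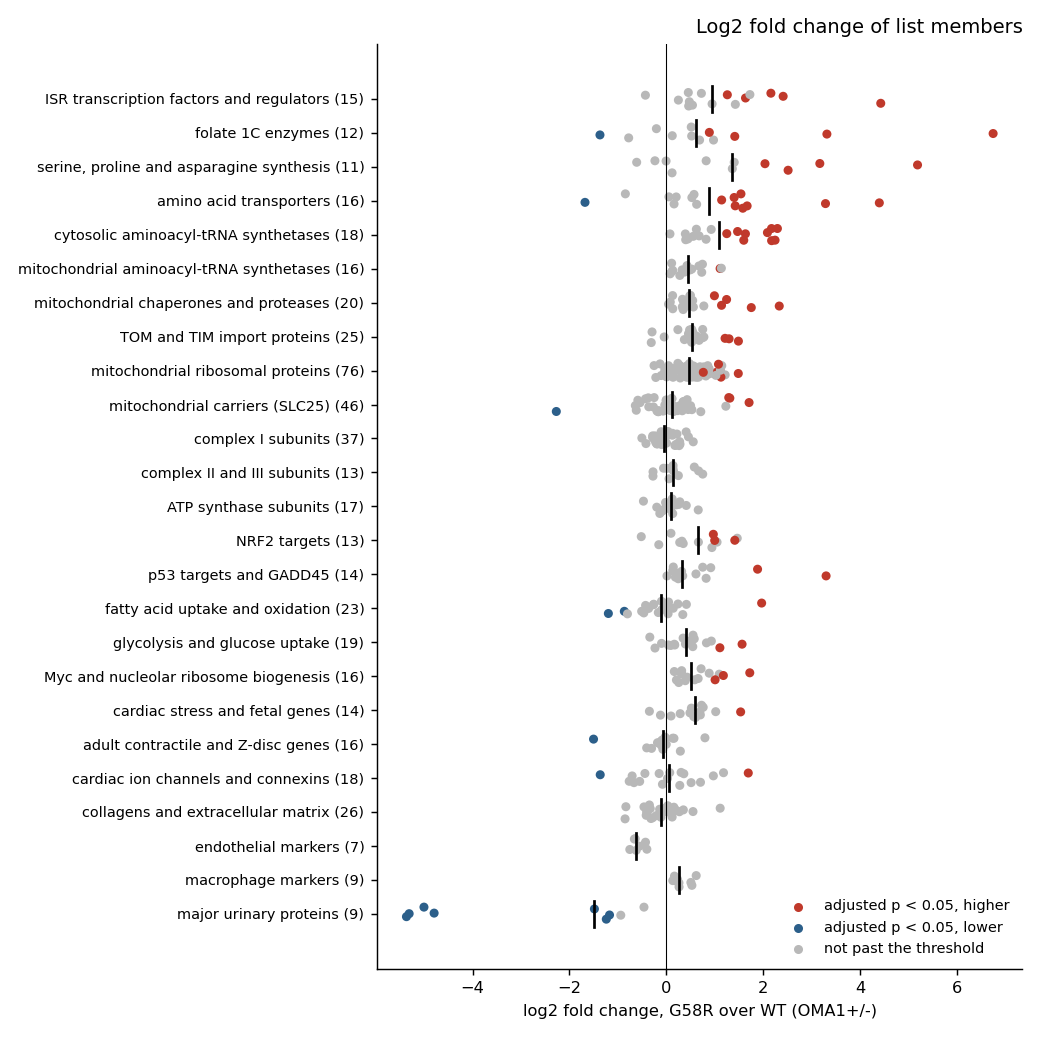
Each point is a gene of the list named at left, with the number of its genes on the array in brackets; the x axis is the log2 fold change of G58R over WT hearts, red and blue points passed the test (higher and lower in G58R), grey points did not, and the black bar is the median over all members on the array. The 4 points furthest to the right belong to the folate, serine, ISR and amino acid transporter lists (Mthfd2, Asns, Atf5 and Slc7a5), complex I has none and its median is -0.04.

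In mitochondria, 5 of 20 genes for chaperones and proteases rose, and of the listed respiratory chain and ATP synthase subunits Cox6a1 alone was called. Lonp1, the matrix protease, was at 12.62, 12.49, 13.09 and 12.07 in G58R hearts, against 9.59, 10.09, 10.24 and 11.04 in WT hearts (log2 fold change 2.33 ± 0.27 SE, adjusted p = 7.98e-05). Grpel2, a nucleotide exchange factor of mitochondrial HSP70, was at 8.37, 9.23, 8.63 and 7.88 in G58R hearts, against 6.70, 7.24, 6.58 and 6.57 in WT hearts (log2 fold change 1.75 ± 0.28 SE, adjusted p = 0.00198). Its relative Grpel1 had a log2 fold change of 0.13 (adjusted p = 0.754). Dnaja3, a mitochondrial HSP40, rose by 1.24, the inner membrane protease subunit Afg3l2 by 1.14 and the chaperonin Hspd1 by 0.99. All 20 chaperones and proteases had a positive log2 fold change; Yme1l1 and Spg7, both inner membrane proteases, were at 0.04 and 0.08. Among import proteins, 3 of 25 rose: the outer membrane channel Tomm40 (log2 fold change 1.21 ± 0.18 SE, adjusted p = 0.00125) and the small intermembrane space chaperones Timm8a1 (1.49) and Timm10 (1.30). For Timm10, WT heart 1 (10.90) lay above G58R heart 4 (10.81).

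Mitochondrial ribosomal proteins had 8 of 76 members called, all upward, with a median log2 fold change of 0.48. Mrps18b was at 11.01, 10.93, 11.20 and 10.21 in G58R hearts, against 8.79, 9.75, 9.62 and 9.24 in WT hearts (log2 fold change 1.49 ± 0.24 SE, adjusted p = 0.00209), and Mrpl19 rose by 1.11, Mrps30 by 1.08 and Mrpl43 by 0.998. With the adipocyte covariate 21 of them were called. No subunit of complex I (37 genes), complexes II and III (13) or ATP synthase (17) passed the test, and their medians were -0.04, 0.14 and 0.09. In the same covariate fit 1 was called upward and 1 downward in complex I, 1 upward in complexes II and III, and 2 upward in ATP synthase. In complex IV the isoform Cox6a1, the form used outside heart and skeletal muscle, was at 16.89, 16.57, 16.53 and 16.41 in G58R hearts, against 15.65, 15.79, 16.11 and 14.67 in WT hearts (log2 fold change 1.04 ± 0.26 SE, adjusted p = 0.0446), a call lost on leaving out any heart but WT heart 3. The difference was larger with the adipocyte covariate (1.81, adjusted p = 0.000684) and against WT OMA1-/- hearts (1.91, adjusted p = 0.000264). Of the other isoforms used outside muscle, Cox7a2 and Cox7a2l had positive log2 fold changes and were not called, with or without the covariate. The paper reports both as increased proteins in C10 G58R heart mitochondria. Cox8a was at 16.17, 16.37, 16.22 and 15.76 in G58R hearts, against 15.42, 15.58, 15.73 and 14.86 in WT hearts and missed the threshold (log2 fold change 0.74 ± 0.22 SE, adjusted p = 0.0872), but passed it with the covariate (1.25, adjusted p = 0.007). Its muscle counterpart Cox8b was at 15.003, 14.78, 14.52 and 14.72 in G58R hearts, against 15.21, 14.97, 15.65 and 15.96 in WT hearts, with overlapping groups, and missed the threshold (log2 fold change -0.69 ± 0.23 SE, adjusted p = 0.12). Cox7a1, also a muscle isoform, was at 16.996, 17.01, 16.67 and 17.35 in G58R hearts, against 17.70, 17.45, 17.46 and 17.58 in WT hearts: every G58R heart lay below every WT heart, yet the difference missed the threshold (log2 fold change -0.54 ± 0.19 SE, adjusted p = 0.146). The muscle counterpart of Cox6a1, Cox6a2, was near the top of the scale in both groups, at 18.93, 19.08, 19.07 and 19.12 in G58R hearts and 18.87, 19.01, 18.996 and 18.97 in WT hearts. Among 46 mitochondrial carriers, 3 rose: Slc25a39, needed for glutathione import, was at 13.13, 13.53, 13.49 and 13.53 in G58R hearts, against 11.22, 12.42, 12.15 and 11.05 in WT hearts (log2 fold change 1.71 ± 0.27 SE, adjusted p = 0.00209), Slc25a33, a pyrimidine nucleotide carrier, rose by 1.31, and Slc25a5, the ADP/ATP carrier ANT2, by 1.29. Coq8b, a kinase-like protein of coenzyme Q synthesis, rose by 0.86. Ppargc1a, the coactivator PGC-1alpha that drives mitochondrial biogenesis, was at 15.68, 15.61, 16.23 and 15.56 in G58R hearts, against 14.61, 15.34, 14.91 and 14.97 in WT hearts (log2 fold change 0.81 ± 0.20 SE, adjusted p = 0.0451), and was the only called member of 16 on its list; with the adipocyte covariate it missed the threshold (0.66, adjusted p = 0.138). Fusion and fission genes (11) and CHCHD and MICOS genes (12) held no called member, but all 12 of the CHCHD and MICOS genes had a positive log2 fold change. In the fit with that covariate 4 of them were called upward, among them Chchd4, a receptor of the intermembrane space import route (1.69, adjusted p = 0.0185, against 1.04 without it), and 1 of the fusion and fission genes. Chchd10, the mutated gene itself, was at 16.39, 16.49, 16.92 and 16.46 in G58R hearts, against 15.01, 16.12, 15.98 and 16.09 in WT hearts, a difference that missed the threshold (adjusted p = 0.0949), with WT heart 1 lowest; the array does not tell the 2 alleles apart. Chchd2, Oma1 and Opa1 had log2 fold changes of 0.20, 0.13 and 0.27 and missed it too.

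Genes of growth arrest and of the redox response changed in part. Cdkn1a, which encodes the cell cycle inhibitor p21, was at 11.55, 12.59, 12.44 and 11.36 in G58R hearts, against 8.06, 10.49, 9.28 and 6.91 in WT hearts (log2 fold change 3.30 ± 0.52 SE, adjusted p = 0.00198). The WT hearts differed widely, heart 2 being highest and heart 4 lowest, and no WT heart reached the G58R range. Gadd45a, a growth arrest and DNA damage gene, was at 9.76, 10.01, 10.65 and 9.34 in G58R hearts, against 7.86, 8.69, 7.90 and 7.77 in WT hearts (log2 fold change 1.88 ± 0.31 SE, adjusted p = 0.003). The other 12 p53 targets listed did not pass, out of 14. Fitted with the adipocyte covariate, 5 of the 14 were called higher. Of 13 targets of the antioxidant factor NRF2, 3 rose: sulfiredoxin Srxn1 (log2 fold change 1.41 ± 0.27 SE, adjusted p = 0.00848), glutathione reductase Gsr (0.999) and the autophagy receptor Sqstm1 (0.97). In the covariate fit 7 of the 13 NRF2 targets were called higher. Srxn1 was at 8.87, 9.84, 8.74 and 8.65 in G58R hearts, against 7.48, 7.77, 7.60 and 7.59 in WT hearts. Sqstm1 was abundant in both groups, at 14.996, 15.33, 15.50 and 14.52 in G58R hearts, against 13.43, 14.51, 14.39 and 14.13 in WT hearts; G58R heart 4 was only just above WT heart 2. Of glutathione transferases, Gsto1 rose (log2 fold change 1.67 ± 0.28 SE, adjusted p = 0.00363) and the microsomal Mgst1 fell. The small heat shock protein Hspb1 (log2 fold change 1.40 ± 0.26 SE, adjusted p = 0.00816) and the lysosomal protease Ctsl (log2 fold change 1.40 ± 0.24 SE, adjusted p = 0.00484) were also higher, each the most changed of a list in which 1 of 12 and 2 of 14 rose. Of 17 endoplasmic reticulum chaperones and stress genes Herpud1 alone rose (log2 fold change 1.23 ± 0.31 SE, adjusted p = 0.0476), and WT heart 2 (16.42) came close to the G58R hearts (16.66, 16.49, 16.81 and 16.49); leaving out any heart other than WT heart 2 removed the call. Nor did any of 15 immediate early genes pass.

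Secreted factors were represented by Ostn. It encodes musclin, a peptide that is made by muscle and that slows clearance of natriuretic peptides, and it was at 12.48, 14.68, 13.52 and 13.49 in G58R hearts, against 6.91, 9.34, 6.37 and 6.55 in WT hearts (log2 fold change 6.25 ± 0.51 SE, adjusted p = 1.12e-06). G58R heart 2 was highest among mutants and WT heart 2 highest among wild types, and WT hearts 1, 3 and 4 were near background. The remaining 20 of 21 secreted factors of heart and muscle did not pass. Fgf21, a hormone often released in mitochondrial disease, was below background in all 8 hearts, so no size of its change is given. No probe set carried the symbol Gdf15, so that gene was not analysed here. The paper counts both among the ATF4 targets that rose in C10 G58R hearts on this OMA1 background.

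In energy metabolism, called genes of fatty acid use moved in both directions and those of glycolysis upward. Acot2, a mitochondrial thioesterase, was at 14.14, 14.96, 14.42 and 15.11 in G58R hearts, against 12.55, 13.91, 12.17 and 12.12 in WT hearts (log2 fold change 1.97 ± 0.35 SE, adjusted p = 0.00611). Acaa2, the last enzyme of beta-oxidation, was at 16.31, 16.48, 16.50 and 16.91 in G58R hearts, against 17.48, 17.51, 17.38 and 17.30 in WT hearts (log2 fold change -0.87 ± 0.18 SE, adjusted p = 0.0187), and the fatty acid transporter Slc27a1 at 10.98, 11.15, 12.02 and 11.78 in G58R hearts, against 11.69, 12.88, 12.97 and 13.18 in WT hearts (log2 fold change -1.20 ± 0.29 SE, adjusted p = 0.0434); for Slc27a1, WT heart 1 lay within the G58R range. The other 20 of 23 genes did not pass. Hexokinase Hk1 was at 14.26, 13.70, 14.65 and 13.87 in G58R hearts, against 12.58, 13.09, 12.88 and 13.48 in WT hearts (log2 fold change 1.11 ± 0.23 SE, adjusted p = 0.0181), and phosphoglycerate mutase Pgam1 at 10.25, 11.08, 10.28 and 10.23 in G58R hearts, against 8.49, 9.82, 9.63 and 7.64 in WT hearts (log2 fold change 1.56 ± 0.36 SE, adjusted p = 0.0311). These were the 2 called members of 19, of which 16 had a positive log2 fold change. With the adipocyte covariate Hk1 was at a log2 fold change of 0.95 and Acaa2 at -0.67, and both missed the threshold (adjusted p = 0.0644 and 0.0931). Both were called against WT OMA1-/- hearts (0.71 and -0.66). The Acaa2 call was lost without G58R heart 1, 2 or 3, and that of Hk1 without G58R heart 1, G58R heart 3 or WT heart 1. Nnmt, which methylates nicotinamide, fell and is described below. Nmrk2, a muscle nicotinamide riboside kinase, was below background in all WT hearts and at 8.09, 6.20, 6.73 and 7.11 in G58R hearts, and missed the test (adjusted p = 0.0741).

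Few genes of the cardiomyocyte itself passed the test, among them some of ion handling. Hcn2, a pacemaker channel, was below background in all WT hearts (4.74, 5.36, 5.83 and 5.81) and above it in all G58R hearts (7.33, 7.13, 7.34 and 6.70), at least 0.54 log2 units higher (adjusted p = 0.00209). Scn4b, a sodium channel beta subunit, was at 6.41, 6.52, 6.51 and 6.69 in G58R hearts, against 7.48, 8.09, 7.46 and 8.57 in WT hearts (log2 fold change -1.36 ± 0.23 SE, adjusted p = 0.00306); WT heart 4 was highest. These were the called members among 18 ion channels and connexins. Slc8a1, the sodium-calcium exchanger, was at 14.84, 14.14, 15.01 and 14.93 in G58R hearts, against 13.34, 13.87, 13.77 and 13.85 in WT hearts (log2 fold change 1.02 ± 0.21 SE, adjusted p = 0.0179), the only call among 13 calcium handling genes, and missed the threshold with the adipocyte covariate (0.69, adjusted p = 0.118). Of the stress and fetal genes, Uchl1, a neuronal ubiquitin hydrolase, was at 7.76, 8.43, 8.58 and 7.35 in G58R hearts, against 5.75, 6.78, 7.46 and 5.98 in WT hearts (log2 fold change 1.53 ± 0.34 SE, adjusted p = 0.024), with WT heart 3 overlapping G58R heart 4. The other 13 of 14 did not pass. Fitted with the adipocyte covariate, 3 of the 14 were called higher, and of the 13 calcium handling genes 1 was called lower. Nppa, the atrial natriuretic peptide gene, was at 18.61, 18.17, 16.98 and 19.09 in G58R hearts, against 18.98, 18.23, 19.13 and 14.24 in WT hearts: it followed the atrial markers and was lowest in WT heart 4, and its difference missed the test (adjusted p = 0.816). Nppb was at 13.99, 14.67, 13.11 and 11.19 in G58R hearts, against 13.37, 12.09, 12.75 and 11.84 in WT hearts (adjusted p = 0.566). Myh6 and Myh7, the adult and fetal myosin heavy chains, had log2 fold changes of -0.02 and -0.12. Within 16 contractile and Z-disc genes Rpl3l alone fell, a ribosomal protein gene that is particular to striated muscle and was placed on that list as a marker of adult muscle.

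Other large rises belonged to no list. Snd1, a multifunctional nuclease and coactivator, was at 8.76, 9.64, 9.85 and 9.31 in G58R hearts, against 5.36, 6.03, 6.88 and 6.15 in WT hearts (log2 fold change 3.28 ± 0.30 SE, adjusted p = 3.47e-06), and Cyb5r1, a flavoprotein reductase, at 9.28, 9.87, 10.51 and 9.54 in G58R hearts, against 6.30, 7.24, 7.13 and 6.83 in WT hearts (log2 fold change 2.93 ± 0.26 SE, adjusted p = 3.47e-06). Snap91, an adaptor of clathrin coats known from nerve terminals, was at 8.86, 9.21, 9.93 and 9.88 in G58R hearts, against 6.85, 7.43, 7.41 and 6.39 in WT hearts (log2 fold change 2.45 ± 0.29 SE, adjusted p = 8.97e-05); Rgs7bp, a membrane anchor of RGS proteins, rose by 2.28, Fstl4 by 2.13 and the arginine methyltransferase Prmt3 by 2.10. The probe set of Vmn2r3, a vomeronasal receptor gene, was below background in all WT hearts (3.91, 6.10, 2.87 and 3.98) and at 8.60, 9.79, 9.36 and 8.06 in G58R hearts, at least 2.37 log2 units higher (adjusted p = 1.89e-05). Whether that probe set measures the receptor or another transcript cannot be told apart with 1 probe set. With the adipocyte covariate all these rises stayed called.

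The largest falls were those of major urinary protein genes, small lipid carriers made mainly in liver. Of the 9 on the array, 5 averaged above background in the brighter group. Of 5 hepatocyte markers 1 did so (log2 fold change -3.98), and none of the 5 was called. Mup22 was at 7.91, 8.17, 8.13 and 8.14 in G58R hearts, against 12.30, 16.05, 15.55 and 9.91 in WT hearts (log2 fold change -5.37 ± 0.88 SE, adjusted p = 0.00251), and Mup19, Mup2 and Mup9 had log2 fold changes of -5.31, -5.004 and -4.79. The 4 G58R hearts were close together, and WT hearts 2 and 3 were highest and heart 4 lowest. These genes are near-identical copies, so their probe sets are not independent of each other; 7 of 9 were called, and 6 with the adipocyte covariate, where Mup22 had a log2 fold change of -3.62 (adjusted p = 0.037) and Mup2 missed the threshold (adjusted p = 0.0611). Against WT OMA1-/- hearts Mup22 was -1.22 and was not called (adjusted p = 0.362). In WT OMA1-/- hearts Mup22 ranged from 8.85 to 10.16, and in WT OMA1+/- hearts of the 20-week cohort from 9.57 to 16.46, so that its level varied among wild-type hearts too. The fat cell hormone gene Retn was at 7.03, 7.66, 4.92 and 6.05 in G58R hearts, against 11.74, 12.76, 12.82 and 6.27 in WT hearts (log2 fold change -4.48 ± 1.01 SE, adjusted p = 0.0275), and the lipogenic gene Thrsp at 10.64, 10.69, 9.29 and 8.34 in G58R hearts, against 12.40, 14.49, 14.003 and 10.75 in WT hearts (log2 fold change -3.17 ± 0.77 SE, adjusted p = 0.04). Slc25a1, the citrate carrier that supplies lipid synthesis, was at 9.02, 9.02, 8.34 and 8.56 in G58R hearts, against 11.70, 12.03, 11.57 and 8.74 in WT hearts (log2 fold change -2.27 ± 0.58 SE, adjusted p = 0.0499); WT heart 4 lay within the G58R range for Retn and Slc25a1 and just above it for Thrsp. With the adipocyte covariate the log2 fold changes of Retn, Thrsp and Slc25a1 were -0.83, -0.62 and -0.04, and all lost their call. Adipoq, the adiponectin gene, was at 8.05, 9.02, 6.03 and 6.68 in G58R hearts, against 13.85, 14.10, 13.87 and 7.12 in WT hearts, and missed the test (adjusted p = 0.0811). Mgst1, at 13.62, 13.79, 13.15 and 13.87 in G58R hearts, against 16.57, 15.65, 15.65 and 14.39 in WT hearts (log2 fold change -1.96 ± 0.37 SE, adjusted p = 0.00922), was lower in every G58R heart than in WT heart 4, but with the covariate it missed the threshold (-0.88, adjusted p = 0.129). Casq1, the skeletal muscle calsequestrin, was -2.35 with overlapping groups, and Ces1d, a lipid esterase, -2.48. With the covariate they were -1.76 and -1.63 and missed the threshold (adjusted p = 0.0941 and 0.0773), but both were called against WT OMA1-/- hearts (-1.98 and -2.76). For Ces1d, WT heart 4 (11.64) lay among the other WT hearts.

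**Figure D4:**
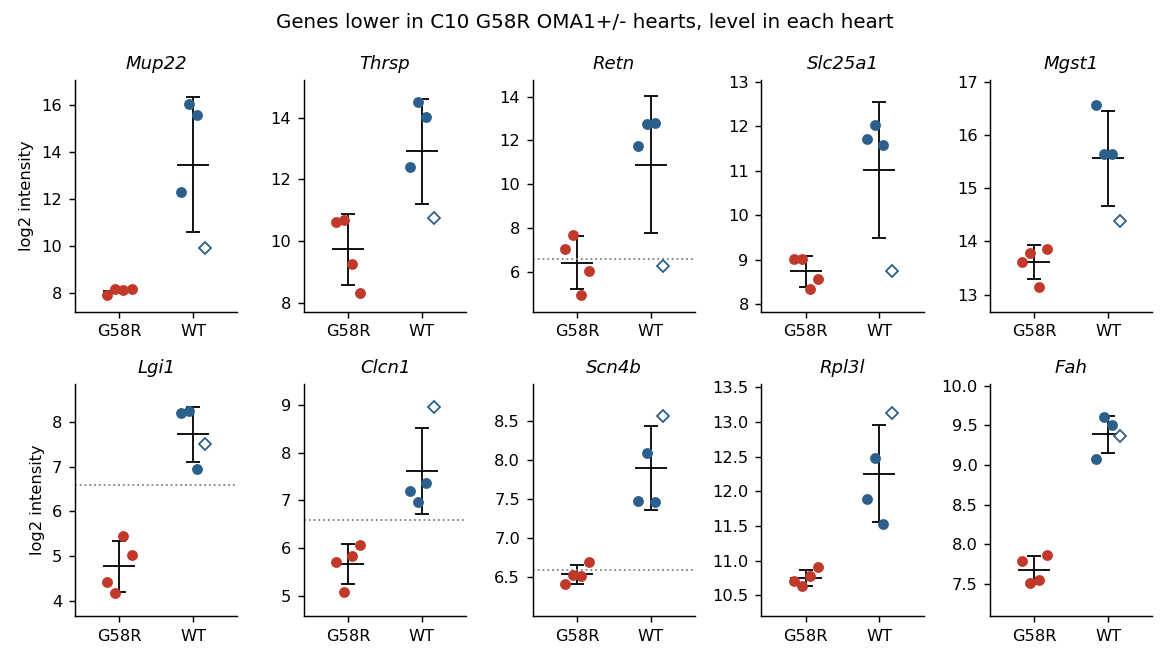
Each panel is a gene and each point 1 heart, G58R left and WT right; the y axis is log2 intensity, the bar the mean, the whiskers the SD (n = 4), the open diamond WT heart 4 and the dotted line the background level. In the upper row WT heart 4 lies below WT hearts 1 to 3 and nearest to the G58R hearts; in the lower row it lies among the other WT hearts or above them.

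Falls outside the major urinary proteins also kept their call with the adipocyte covariate. Lgi1, a secreted protein known from brain, was below background in all G58R hearts and at 8.20, 8.24, 6.94 and 7.51 in WT hearts, at least 1.13 log2 units lower in G58R (adjusted p = 0.00039; 0.00475 with the adipocyte covariate). Clcn1, the muscle chloride channel, was below background in all G58R hearts and at 7.19, 6.97, 7.37 and 8.95 in WT hearts, at least 1.03 lower (adjusted p = 0.00692), WT heart 4 being highest. Rpl3l was at 10.71, 10.63, 10.77 and 10.90 in G58R hearts, against 11.89, 12.48, 11.53 and 13.12 in WT hearts (log2 fold change -1.50 ± 0.33 SE, adjusted p = 0.0218), Scn4b is given above, and for both the WT heart 4 value was the highest. Fah, the last enzyme of tyrosine breakdown, was at 7.79, 7.51, 7.55 and 7.87 in G58R hearts, against 9.07, 9.60, 9.50 and 9.36 in WT hearts (log2 fold change -1.71 ± 0.22 SE, adjusted p = 0.000261). Nnmt was at 8.13, 7.61, 7.55 and 7.73 in G58R hearts, against 9.55, 8.91, 9.19 and 8.68 in WT hearts (log2 fold change -1.33 ± 0.21 SE, adjusted p = 0.00204). Trarg1, a regulator of glucose transporter traffic in fat and muscle, was at 6.78, 6.91, 6.38 and 6.33 in G58R hearts, against 8.55, 8.92, 8.94 and 7.35 in WT hearts (log2 fold change -1.84 ± 0.29 SE, adjusted p = 0.00209); with the covariate its log2 fold change was -0.89. All of Lgi1, Clcn1, Rpl3l, Scn4b, Fah, Nnmt and Trarg1 remained called with the adipocyte covariate. The rule that named falls asked for this in part, so it is no separate support. Of all 92 falls, 47 stayed called. Against the WT OMA1-/- hearts Lgi1, Clcn1, Rpl3l, Scn4b and Fah were again called, with log2 fold changes of -2.30 to -0.99, whereas Nnmt (-0.34) and Trarg1 (-0.53) were not.

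**Figure D5:**
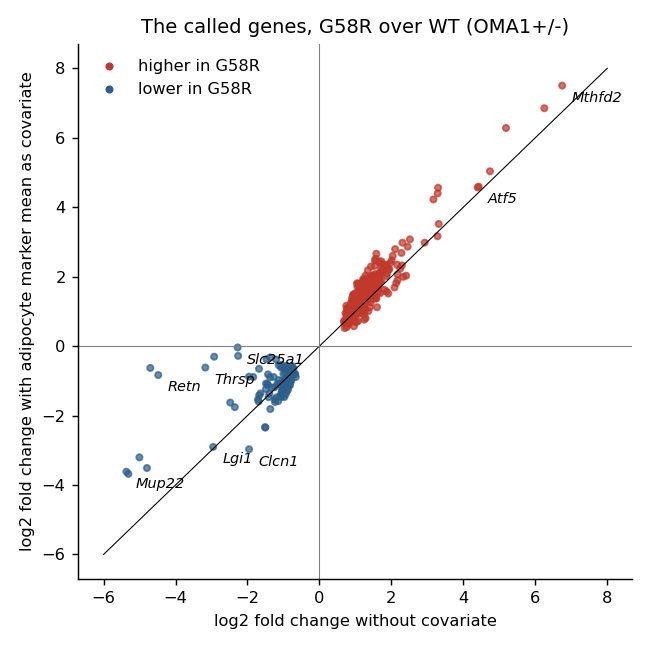
Each point is 1 of the 387 called genes, red if higher and blue if lower in G58R hearts; the x axis is the log2 fold change of the fit without covariate, the y axis that with the adipocyte marker mean as a covariate, and the diagonal marks equal values. Mthfd2 and Atf5 lie above the diagonal, Retn, Thrsp and Slc25a1 move close to 0, and Lgi1 and Clcn1 do not.

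Markers of most other cells held no called member. All 7 endothelial markers had a negative log2 fold change (median -0.62), averaging 11.38, 11.14, 11.05 and 11.84 in G58R hearts, against 11.84, 11.62, 11.78 and 12.49 in WT hearts, and none passed. With the adipocyte covariate 2 were called lower, among them Cdh5, the endothelial cadherin (-1.50, adjusted p = 0.0195, against -0.75 without it), which was also called against WT OMA1-/- hearts (-1.52). With the atrial marker mean as a further covariate 4 endothelial markers were called lower. All 9 macrophage markers were positive (median 0.26) and none passed; the groups overlapped, at 10.40, 10.44, 9.57 and 10.24 in G58R hearts and 10.60, 10.33, 9.84 and 8.57 in WT hearts. WT heart 4 was the lowest of the 8. All G58R means lay above those of WT OMA1-/- hearts (8.36 to 9.42). In the covariate fit 3 macrophage markers were called higher, among them the complement genes C1qc (1.71, adjusted p = 0.0171, against 0.62 without it) and C1qb (1.93, adjusted p = 0.0284, against 0.51), and both were also called against WT OMA1-/- hearts. With the atrial mean as a further covariate C1qc was the only macrophage marker called (1.68, adjusted p = 0.0345). C1qb then missed the threshold (1.70, adjusted p = 0.0672). Fibroblast, mural and mesothelial markers, collagens, interferon-stimulated genes and clock genes held no called member. Under the covariate 1 mural marker and 2 collagen or matrix genes were called higher. With the atrial mean added these counts were 0 and 2. The B cell genes Cd79a and Cd79b were called lower, with both groups below background. So was the T cell gene Cd2, 1 of 4 on its list, also with both groups below background. Of the Schwann cell and sympathetic nerve markers 1 of 4 was called lower, and of the fast skeletal muscle markers 1 of 6. In the covariate fit Cd2 missed the threshold (adjusted p = 0.114), while 1 nerve marker and 1 skeletal muscle marker were called lower. With the atrial mean added, 0 nerve markers and 1 skeletal muscle marker were called lower. The part of endothelial, fat or atrial tissue in the calls on other genes was not tested beyond the covariate fits.

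The G58R effect was also set against that in hearts without OMA1. The paper reports that most G58R OMA1-/- pups died as newborns. The few survivors had markedly enlarged hearts and small bodies, and the paper calls them decompensated. It proposes that ATF4 was activated by another route in these mice. The G58R effect without OMA1 is therefore that of selected survivors. How far their state set its size was not tested. The difference between the G58R effects on the 2 OMA1 backgrounds passed the test for 66 of the 387 genes called here. For 57 of them the effect was smaller in size in OMA1+/- than in OMA1-/- hearts. Over all genes the difference passed for 3.13%. The G58R and WT OMA1+/- hearts that chose the called genes enter this difference too, so the 2 shares are not compared. With the adipocyte covariate 7 of the called genes passed, among the genes named above Srxn1 and Rpl3l. Srxn1 rose by 1.41 in OMA1+/- hearts and by 4.17 in OMA1-/- hearts (difference -2.76 ± 0.38 SE, adjusted p = 0.000723). Rpl3l changed by -1.50 and -4.73 (difference 3.23 ± 0.46 SE, adjusted p = 0.000943). For Mthfd2 and Atf5 the differences were 0.12 ± 0.71 and 0.90 ± 0.35 SE and missed the threshold.

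A second CHCHD10 mutation, S59L, had been measured at 20 weeks on the same OMA1+/- background with its own WT hearts. Mutation, age and cohort cannot be told apart there. The G58R effect differed from the S59L effect for 78 of the 387 genes, and for 8.33% of all genes. The G58R and WT hearts that chose the called genes enter this difference too, so the 2 shares are not compared. Mthfd2 and Atf5 differed by -0.67 ± 0.77 and 0.73 ± 0.51 SE (G58R minus S59L) and missed the threshold. Atf4 rose by 2.16 in G58R and 3.72 in S59L hearts (difference -1.56, adjusted p = 0.0205). Srxn1 rose by 1.41 in G58R and by 7.47 in S59L hearts (adjusted p of the difference = 4.64e-07), and Uchl1 by 1.53 and 8.41 (adjusted p of the difference = 4.44e-06). Rpl3l fell less in G58R (-1.50) than in S59L hearts (-5.38; adjusted p of the difference = 2.08e-05). These differences for Atf4, Srxn1, Uchl1 and Rpl3l stayed past the threshold with the adipocyte covariate.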

How the data were processed

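RNA of 32 mouse hearts was hybridised to Clariom S Mouse arrays (Affymetrix). The deposited values are log2 gene-level intensities that the authors made with SST-RMA in Transcriptome Analysis Console at default settings; the sources used here do not give whether all arrays were normalised together. Of 22206 target probe sets, 19572 carried 1 gene symbol; the brightest probe set was kept per gene, leaving 19505 genes. Groups were taken from the sample labels. The 16 arrays of the 14-week cohort (4 groups of 4 animals) were fitted by lmFit, contrasts.fit and eBayes of limma 3.58.1 (R 4.3.3), two-sided, with Benjamini-Hochberg adjustment over all genes and a threshold of 0.05; the fit was tested on simulated data. The S59L comparison used all 32 arrays. Precision is limited by the number of hearts, since an array has no read depth. Array medians ranged from 6.43 to 6.75.

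Background was 6.59, the 95th percentile over 1399 olfactory or vomeronasal receptor genes of their mean level. A gene below it on all 4 arrays of the dimmer group is given as a bound, the brighter group's mean minus background. Named genes were the 25 largest rises and 15 largest falls with groups apart and above background, the 10 largest falls also called with the adipocyte covariate, up to 4 members of each list by smallest p, and a fixed set of ISR, CHCHD10 and cardiac genes. Nupr1, Slc7a11, Eprs, Hspd1, Mars1, Nars, Lars, Slc38a1, Slc7a6, Slc1a4, Aldh1l1, Casq1, Psph, Grpel1, Yme1l1, Spg7 and the 5 synthetases that did not pass were named after their values were seen. Members and lists were chosen with earlier results of these data known. Alternatives were covariates (adipocyte and atrial marker means, sex), array weights, other normalisation and fits, a replicate block, other reference hearts and leaving out each heart; the atrial covariates were added after seeing the data.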

Additional observations from a re-analysis of the deposited data

Results flagged for a closer look

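Within groups of 4 hearts, the gap of 1 heart to the next took up more of the group's range than Dixon's 95% critical value allows for 15 of 282 groups examined, and chance alone gives about 1 in 20. WT heart 4 was the lowest of its group for Adipoq (7.12), Retn (6.27), Plin1 (6.15), Slc25a1 (8.74) and the mean of the white adipocyte markers (6.91). WT heart 2 was the highest for Gadd45a (8.69), Fgf21 (5.49, below background) and Cd79a (7.21), and WT heart 1 the lowest for Chchd10 (15.01). Among G58R hearts, replicate 1 was the lowest for Slc25a39 (13.13), replicate 3 for C1qb (10.15), replicate 4 for Slc25a33 (8.10), Ctsl (13.64) and Slc7a6 (7.96), and replicate 2 the highest for Pgam1 (11.08).

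For the genes named here, the G58R effect in OMA1+/- hearts minus that in OMA1-/- hearts passed the threshold of limma's interaction test (adjusted p below 0.05) for these. On the log2 scale it was -2.48 for Nupr1, -2.48 for Asns, -2.28 for Psat1, -1.63 for Aldh18a1, -2.28 for Slc7a3, -1.49 for Slc3a2, -2.32 for Slc7a11, -2.42 for Slc38a1 and -1.21 for Eprs. Among mitochondrial genes it was -1.95 for Grpel2, -1.17 for Afg3l2, -1.04 for Mrpl19, -1.45 for Slc25a5, -3.20 for Slc25a1, -1.57 for Coq8b, 1.03 for Cox7a1 and 1.24 for Ppargc1a. For growth, redox and other stress genes it was -1.67 for Myc, -1.59 for Wdr12, -2.84 for Cdkn1a, -2.76 for Srxn1, -1.93 for Gsto1, -2.08 for Ctsl, -2.44 for Pgam1, -2.95 for Uchl1, -5.69 for Nmrk2 and -1.57 for Cyb5r1. For cardiac genes it was 3.23 for Rpl3l, -3.94 for Nppb and -2.21 for Rcan1. For the B cell gene Cd79b, on average below background in both OMA1+/- groups, it was -1.34. With the adipocyte marker mean as a covariate Srxn1 (-2.31), Nmrk2 (-4.83) and Rpl3l (2.31) stayed past the threshold and the others did not. The G58R OMA1-/- hearts came from the few surviving, decompensated mice described above.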

How the results depend on the processing

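387 genes were called in the comparison of G58R with WT hearts. The count was 1892 with the adipocyte marker mean as a covariate, 1395 with adipocyte and atrial means, 2515 without the arrays of high adipocyte mean (1 WT OMA1+/- heart left, assumed to vary like the other groups), 2789 against WT OMA1-/- hearts, 251 with array weights and 63 with the 8 arrays alone, where fewer samples estimate the spread. Leaving out 1 heart gave 144 to 439. The low values came without G58R heart 2 (144), G58R heart 3 (160) and G58R heart 1 (239). Of the 295 rises 99, and of the 92 falls 21, stayed called in all 8 of these fits. The interaction with OMA1 was called for 610 genes, 43 with the adipocyte covariate, 2018 with array weights and 325 to 2309 on leaving out 1 heart, the highest without WT OMA1+/- heart 4. The difference from S59L was called for 1625, 2901 with array weights and 1072 to 2674 on leaving out 1 heart, the lowest without WT heart 3 and the highest without WT heart 4. The cause of these shifts was not tested. Sex as a covariate (324), quantile normalisation (290), trend and robust eBayes (341), all 32 arrays (290), genes above background only (457), the mean of probe sets (387) and the atrial covariate (440) stayed within 1.5 times the count. Of 108 called genes named here, 90 kept their call with the adipocyte covariate, 107 with the atrial covariate, 88 against WT OMA1-/- hearts and 41 with the 8 arrays alone. Mthfd2, Asns, Atf4, Atf5, Ostn and Slc7a5 kept it in all of these. Some falls were named because they kept their call with the adipocyte covariate. Over all 387 called genes, 291 did. The call was kept by 79 of the 108 without G58R heart 1, 71 without G58R heart 2 and 77 without G58R heart 3. Direction turned for Slc25a1 (0.0022) and Retn (0.15) without the arrays of high adipocyte mean, and for Slc25a1 (0.25), Retn (0.76) and Cd79b (0.0523) against WT OMA1-/- hearts, none of them called there.

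Replicate numbers did not pair the hearts: same-numbered G58R and WT hearts deviated from their group means with correlations of 0.10, 0.27, -0.10 and 0.01. With the number as a replicate block the counts were 445, 609 and 1652 for the 3 comparisons; Mthfd2l and Rps13 lost and Trib3 and Plin1 gained a call.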
